A study of Mus musculus with 12 samples.

Results

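A set of 10 genes of the cornified envelope and of squamous epithelial differentiation was described over luminal and basal cells of the mouse prostate, from intact and from castrated males. The 10 genes (Ivl, Sprr1a, Sprr1b, Sprr3, Tgm1, Sfn, Ly6d, Lypd3, Dsg3 and Dsc3; keratins were not among them) were chosen by symbol, and 9 of them had a probe set listed for that symbol alone, out of 18193 genes measured in this way. Dsg3 was not analysed here. Where a gene had several probe sets, 1 was chosen by the highest mean of log2(signal + 16) over all 12 arrays, so this mean is a description and carries no test. It was 9.58 for the probe set of Ivl that was used and 8.81 for the one that was not, and 6.86 and 4.87 for the corresponding pair of Dsc3. Of the 9 measured genes, 8 passed the filter on dim probe sets, which asked for a signal above the 40th percentile of the array on at least 3 arrays, and 14645 genes passed it in all. Sprr1b did not pass and has values without a test.

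All animals were C57BL/6 males. Adult mice of 8 weeks were castrated surgically or left intact, and prostate was taken 4 weeks after castration, together with that of the paired intact mice. Dissociated cells negative for lineage markers (Lin-) and positive for EpCAM, a surface protein of epithelial cells, were sorted on CD49f, the integrin alpha 6 chain: luminal cells were CD49f low and basal cells CD49f high. Each of the 4 combinations of cell type and surgery was measured on 3 arrays. The labels call the arrays biological replicates from distinct sets of mice, and give neither the number of mice in a set nor the prostate lobe. RNA of the sorted cells was amplified before hybridisation to a 1-colour Affymetrix array.

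The cornified envelope is a layer of cross-linked protein that forms beneath the membrane of squamous keratinocytes in their last stage of differentiation. Involucrin and the small proline-rich proteins are its precursors, and transglutaminases join them to each other and to desmosomal proteins. The prostate epithelium is not squamous and forms no such layer, although some of these genes are also active in basal cells of glands and in the urothelium, and squamous metaplasia of the prostate is a known response to estrogen.

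The sort was reflected in the marker genes. The 8 basal markers examined, among them Krt5 and Krt14, had summed signals of 8827 to 12387 on the 6 luminal arrays and of 94795 to 165509 on the 6 basal arrays, and all 8 were lower in luminal cells in both conditions. The 7 luminal markers on the array summed to 115911 to 216952 on luminal arrays and to 68612 to 100427 on basal arrays, so luminal transcripts were not absent from the basal sort. In bulk RNA of sorted cells, fewer cells expressing a gene and less RNA of it per cell cannot be told apart.

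Of the members, 4 lie together on mouse chromosome 3. In RefSeq coordinates on GRCm38.p6, Ivl (chr3:92570899-92573790), Sprr1a (chr3:92483954-92485881), Sprr3 (chr3:92456502-92458720) and Sprr1b (chr3:92436808-92438817) fall within 137 kb. The 250 bases before the start of Ivl, Sprr1a and Sprr1b are printed because these neighbours share a match to a searched motif. Of them, Ivl was called after castration, Sprr1a was not, and Sprr1b was not tested. Those of Lypd3 are printed because it was called with Ivl in both cell types. Capitals mark matches to TGANTCA, where N is any base, a loose form of the motif bound by AP-1 transcription factors. It reads the same on both strands apart from its middle base, which is C in Ivl, G in Sprr1a and A in Sprr1b. The windows are chr3:92573736-92573985 for Ivl, chr3:92485882-92486131 for Sprr1a and chr3:92438780-92439029 for Sprr1b, all on the minus strand, and chr7:24636320-24636569 on the plus strand for Lypd3. For Ivl and Sprr1b the window reaches into the gene coordinates given above, so the start it borders lies inside them. Distances below are counted from the start that each window borders.
Ivl: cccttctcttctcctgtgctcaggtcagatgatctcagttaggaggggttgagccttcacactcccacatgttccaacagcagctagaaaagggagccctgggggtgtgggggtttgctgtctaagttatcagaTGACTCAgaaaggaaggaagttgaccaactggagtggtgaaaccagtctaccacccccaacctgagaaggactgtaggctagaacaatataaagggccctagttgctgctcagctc
Sprr1a: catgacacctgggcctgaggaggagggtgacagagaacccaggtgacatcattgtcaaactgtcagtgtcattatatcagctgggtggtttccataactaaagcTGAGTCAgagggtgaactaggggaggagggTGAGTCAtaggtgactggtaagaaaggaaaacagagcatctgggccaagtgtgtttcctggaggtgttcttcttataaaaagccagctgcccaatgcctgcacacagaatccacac
Sprr1b: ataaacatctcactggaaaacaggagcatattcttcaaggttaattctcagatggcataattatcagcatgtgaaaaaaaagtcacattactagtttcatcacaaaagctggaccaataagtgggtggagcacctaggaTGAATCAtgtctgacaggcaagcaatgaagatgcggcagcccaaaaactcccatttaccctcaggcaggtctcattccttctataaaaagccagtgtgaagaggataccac
Lypd3: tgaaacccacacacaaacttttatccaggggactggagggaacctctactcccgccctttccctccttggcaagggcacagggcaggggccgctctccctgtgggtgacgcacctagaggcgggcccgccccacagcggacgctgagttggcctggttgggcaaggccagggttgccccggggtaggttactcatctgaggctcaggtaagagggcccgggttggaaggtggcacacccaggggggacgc
A match to TGANTCA occurred at 116 to 110 bases before the start of Ivl and at 111 to 105 before that of Sprr1b. Sprr1a had matches at 146 to 140 and again at 116 to 110. RefSeq promoter entries were found for 7 of the 10 genes, and only these 3 had such a match. Of 32851 mouse promoter windows of this length, 6.75% hold a match to TGANTCA. The TATA box, searched as TATAAA on both strands, was found in the windows of Ivl, Sprr1a, Sprr1b and Sprr3, against 12.4% of all windows. The GC box, searched as GGGCGG on both strands, was found in those of Lypd3 and of a start site of Tgm1, against 32.7%. None of these matches overlapped a match to another of the motifs, and a match describes the letters only.

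**Figure D1:**
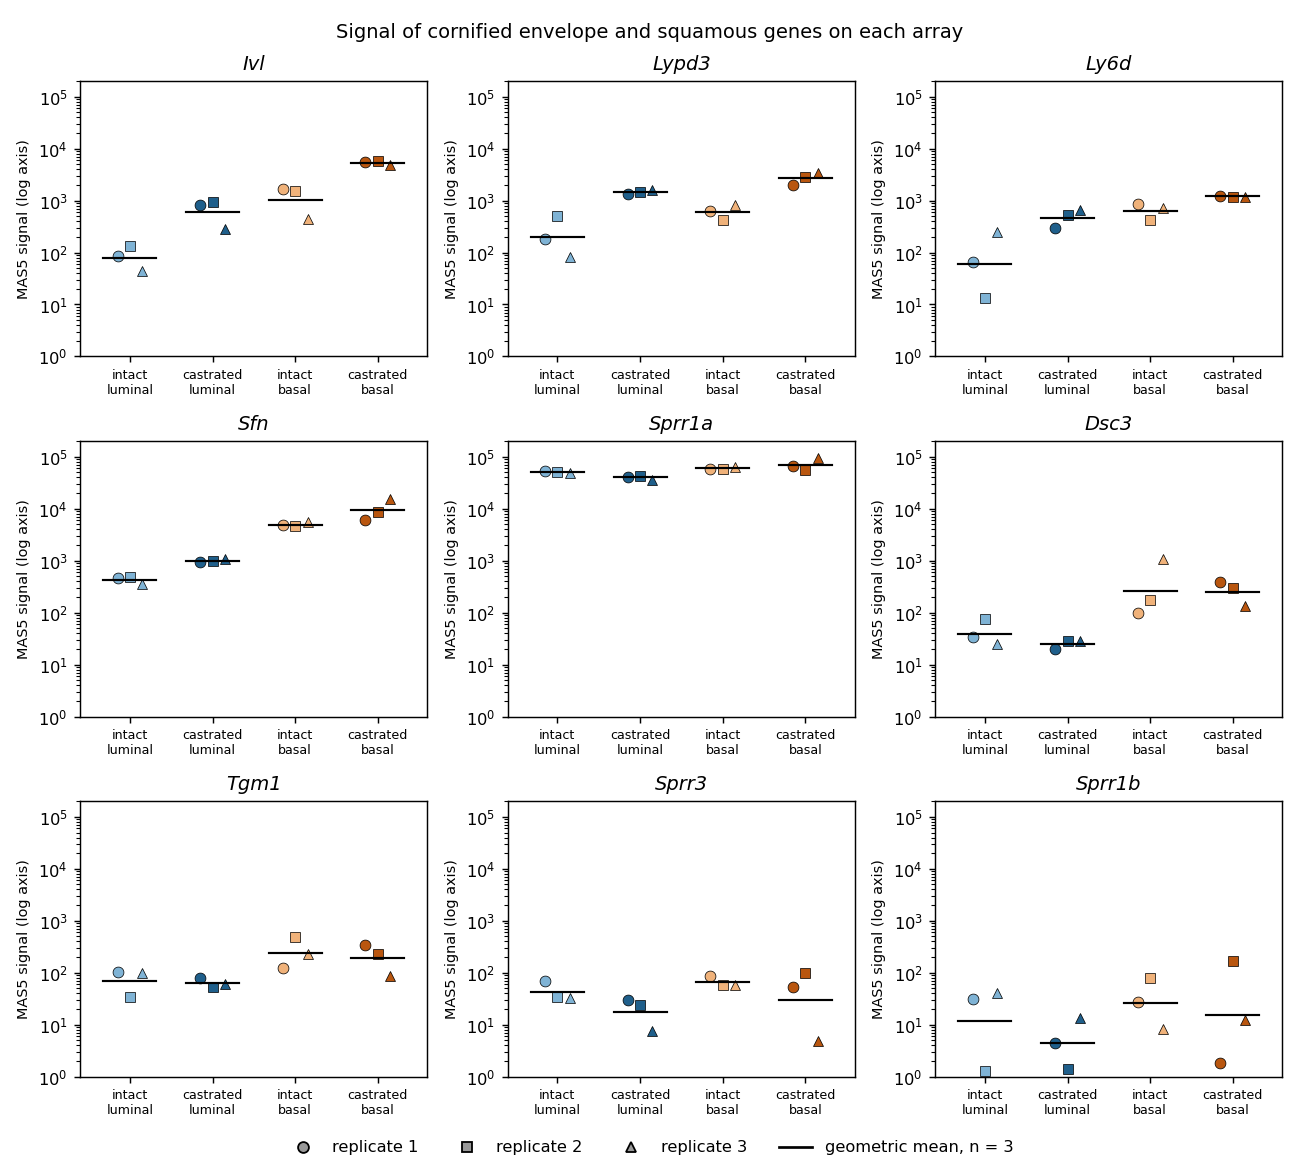
Deposited MAS5 signal (log axis) of the 9 measured genes on each of the 12 arrays, by group. Symbols mark the replicate number and bars the geometric mean of 3 arrays. Ivl, Lypd3 and Sfn show their highest signals on castrated basal arrays, whereas the lowest Sprr1a signal is 36312.

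Among the envelope precursors, Ivl, which encodes involucrin, rose after castration in both cell types. Its signal was 83.9, 133.8 and 44.8 on the intact luminal arrays and 839.2, 937.8 and 283.6 on the castrated luminal arrays. All 3 castrated arrays lay above all 3 intact ones. The difference was 2.69 ± 0.55 (log2, SE), or 6.45-fold on the log2(signal + 16) scale (limma adjusted p = 0.00633). In basal cells the signal was 1643, 1562 and 433.4 in intact and 5498, 5670 and 4906 in castrated mice, again without overlap. That difference was 2.35 ± 0.55, or 5.08-fold (adjusted p = 0.0334). Castrated basal cells had the highest Ivl signals and intact luminal cells the lowest, while the ranges of castrated luminal and intact basal cells overlapped. Ivl was lower in luminal than in basal cells by a log2 difference of -3.45 ± 0.55 in intact mice (adjusted p = 2.67e-04) and of -3.10 ± 0.55 in castrated mice (adjusted p = 6.65e-04).

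The second probe set of Ivl did not enter these fits. It read 11.2, 83.1 and 13.9 in intact luminal, 523.3, 671.7 and 462.7 in castrated luminal, 851.5, 367.3 and 193.4 in intact basal, and 5319, 2397 and 5100 in castrated basal cells. The castrated arrays were above the intact ones in both cell types there too. When each of the 34945 probe sets of a single gene was tested singly, its castration difference was 3.70 ± 0.58 in luminal cells (adjusted p = 0.00101) and 3.30 ± 0.58 in basal cells (adjusted p = 0.00857). Both probe sets were measured on the same RNA and are not independent samples.

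Sprr1a, a small proline-rich protein that is cross-linked into the envelope, gave very high signals on every array and no castration call. Its signals were 53142, 49841 and 47830 in intact luminal, 41660, 42992 and 36312 in castrated luminal, 57089, 58312 and 63357 in intact basal, and 65405, 56010 and 95396 in castrated basal cells. The castrated luminal arrays lay below all the intact luminal ones, and the basal groups overlapped. From the top, this probe set ranked 21, 33 and 51 on the intact luminal arrays and 3, 10 and 4 on the castrated luminal ones. The ranks were 17, 13 and 19 on the intact basal arrays and 7, 7 and 5 on the castrated basal ones. It thus stood nearer the top after castration, although the luminal signals were lower. The rank reflects the probe set and the other genes of the array as well as its own RNA. The castration difference was -0.32 ± 0.15 in luminal cells (adjusted p = 0.241) and 0.24 ± 0.15 in basal cells (adjusted p = 0.416). After castration Sprr1a was lower in luminal than in basal cells, with a log2 difference of -0.81 ± 0.15 (adjusted p = 8.63e-04), and in intact mice the difference was -0.25 ± 0.15 (adjusted p = 0.278). These directions depend on the scaling at this end of the signal range: quantile normalization gave 0.73 for luminal castration (adjusted p = 4.19e-04) and 0.034 for luminal against basal cells of castrated mice, and median centring gave 0.060 for luminal castration. Quantile normalization also gave 0.43 in basal cells (adjusted p = 0.0444), and a fit without the intensity trend took the adjusted p of -0.81 to 0.0919.

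Sprr3, another small proline-rich protein, read 69.9, 33.9 and 32.6 in intact luminal, 29.6, 23.6 and 7.52 in castrated luminal, 87.3, 56.8 and 58.0 in intact basal, and 52.1, 100.1 and 4.82 in castrated basal cells. It lay between the 13.8th and the 56.7th percentile of its array throughout, and no difference passed the test. Its castration differences were -0.76 ± 0.64 in luminal cells (adjusted p = 0.568) and -0.59 ± 0.64 in basal cells (adjusted p = 0.692). Sprr1b exceeded the 40th percentile on 1 intact basal array, at 77.6, and on 1 castrated basal array, at 166.4. Its other 10 signals ran from 1.29 to 41.3, below the 40th percentile of their arrays. Of the 3 tested genes in this stretch of chromosome 3, Ivl was the only one called for castration.

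Tgm1 encodes transglutaminase 1, the membrane-bound enzyme that cross-links the envelope of keratinocytes. It read 104.1, 33.4 and 100.8 in intact luminal, 79.8, 53.3 and 61.3 in castrated luminal, 125.3, 486.4 and 225.7 in intact basal, and 340.8, 230.4 and 87.2 in castrated basal cells. The intact basal arrays were above the intact luminal ones, and the castrated groups of each cell type overlapped their intact groups. No difference passed the test: luminal castration gave -0.14 ± 0.66 (adjusted p = 0.932), basal castration -0.31 ± 0.66 (adjusted p = 0.859), and luminal against basal cells -1.54 ± 0.66 in intact mice (adjusted p = 0.114).

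Sfn encodes 14-3-3 sigma, an epithelial member of the 14-3-3 adaptor proteins that takes part in cell cycle arrest and keratinocyte differentiation. It read 468.8, 495.8 and 348.8 in intact luminal and 932.9, 997.4 and 1065 in castrated luminal cells. The groups did not overlap, and the difference was 1.17 ± 0.31, or 2.26-fold (adjusted p = 0.0338). In basal cells it read 4818, 4630 and 5501 in intact and 6158, 8513 and 15065 in castrated mice. These groups did not overlap either, and the castrated arrays were spread widely. The difference of 0.89 ± 0.31 was smaller than in luminal cells and did not pass the test (adjusted p = 0.140). Its SE equals that in luminal cells because all 4 groups share an estimate of the spread. The gap between cell types was wider than either castration difference, at -3.47 ± 0.31 for luminal against basal cells in intact mice (adjusted p = 9.36e-07) and -3.19 ± 0.31 in castrated mice (adjusted p = 2.05e-06).

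Lypd3 and Ly6d encode surface proteins of the Ly6/uPAR domain family that are anchored by glycosylphosphatidylinositol and found on squamous keratinocytes. Ly6D is also used as a marker of a subset of mouse prostate luminal cells associated with castration resistance. Lypd3 read 186.0, 511.1 and 81.9 in intact luminal and 1330, 1482 and 1578 in castrated luminal cells. The castrated arrays were closely spaced and above every intact one, and the difference was 2.76 ± 0.50, or 6.76-fold (adjusted p = 0.00265). In basal cells Lypd3 read 620.6, 424.8 and 817.4 in intact and 1978, 2867 and 3456 in castrated mice. That difference was 2.14 ± 0.50, or 4.40-fold, without overlap (adjusted p = 0.0334). Lypd3 was lower in luminal than in basal cells of intact mice, with a difference of -1.50 ± 0.50 (adjusted p = 0.0438), although intact luminal replicate 2 lay within the intact basal range. In castrated mice the difference was -0.88 ± 0.50 (adjusted p = 0.250).

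Ly6d read 64.7, 13.3 and 248.0 in intact luminal and 303.1, 525.2 and 655.5 in castrated luminal cells. The groups did not overlap, with the intact arrays far apart, and the difference was 2.51 ± 0.63, or 5.71-fold (adjusted p = 0.0243). In basal cells it read 876.0, 422.3 and 712.6 in intact and 1244, 1172 and 1188 in castrated mice. All 3 castrated basal arrays were above the intact ones, but the difference of 0.89 ± 0.63 did not pass (adjusted p = 0.501). Ly6d was lower in luminal than in basal cells of intact mice, with a difference of -2.94 ± 0.63 (adjusted p = 0.00314), and the difference in castrated mice was -1.32 ± 0.63 (adjusted p = 0.167). Whether castration acted differently on Ly6d in the 2 cell types was tested by the interaction term, which was 1.63 ± 0.89 (adjusted p = 0.475).

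Dsc3 and Dsg3 encode desmosomal cadherins of the lower layers of stratified epithelia. Dsc3 read 33.6, 73.9 and 24.8 in intact luminal, 19.8, 28.6 and 28.7 in castrated luminal, 97.9, 176.2 and 1055 in intact basal, and 394.2, 294.4 and 133.9 in castrated basal cells. Every basal array was above every luminal one, and intact basal replicate 3 was far above the other 2 of its group. Dsc3 exceeded the 40th percentile on all 3 arrays of each basal group, on 1 intact luminal array and on 0 castrated luminal arrays. It thus passed the filter only through basal cells, and a lower luminal signal is not separate from that filter. The luminal castration difference compares dim signals. Luminal cells were lower than basal cells with a difference of -2.34 ± 0.75 in intact mice (adjusted p = 0.0358) and of -2.69 ± 0.75 in castrated mice (adjusted p = 0.0178). Castration gave -0.45 ± 0.75 in luminal cells (adjusted p = 0.804) and -0.10 ± 0.75 in basal cells (adjusted p = 0.965). The other probe set of Dsc3 read between 1.39 and 65.1 on all arrays and was not called. In the fit of single probe sets it gave -0.47 ± 0.50 for luminal against basal cells of intact mice (adjusted p = 0.629) and -1.42 ± 0.50 in castrated mice (adjusted p = 0.0766). In that fit the chosen probe set gave adjusted p values of 0.0506 in intact and 0.0267 in castrated mice.

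**Figure D2:**
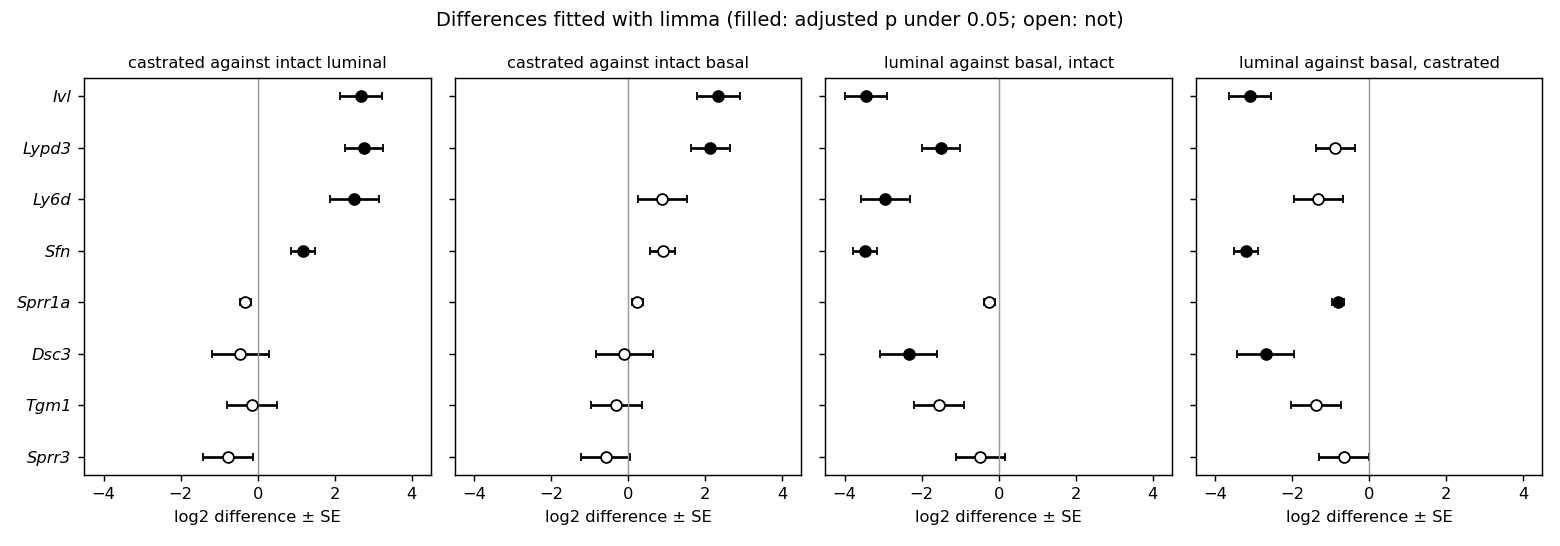
Log2 differences with standard errors of the 8 tested genes in the 4 comparisons, from 3 arrays a group. Filled points passed the limma test at an adjusted p of 0.05. Ivl and Lypd3 are filled in both castration panels, and no point lies to the right of 0 in either panel of luminal against basal cells.

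Counted together, 4 of the 8 tested genes rose after castration in luminal cells (Ivl, Lypd3, Ly6d and Sfn) and none fell, while 2.9% of all genes tested rose and 2.96% fell. In basal cells 2 of 8 rose (Ivl and Lypd3) and none fell, against 1.12% and 1.5% of all genes. At an unadjusted limma p of 0.05 there were 5 genes in luminal cells, among them Sprr1a, which was lower (-0.32 ± 0.15). In basal cells there were 3, among them Sfn (0.89 ± 0.31). The share of all genes at that unadjusted level was not counted for these comparisons. The genes were listed with earlier results of these data known, so these counts describe the list and do not support a direction. The median difference of the 8 was 0.51 in luminal and 0.56 in basal cells, where that of all genes was -0.09 and -0.11. The luminal and basal castration comparisons share no arrays. Scaling moved the whole distribution: median centring took the median of all genes to 0.29 in luminal and 0.23 in basal cells, and the calls over all genes from 424 higher and 434 lower to 1021 and 252 in luminal cells, and from 164 and 220 to 511 and 115 in basal cells. Under quantile normalization the luminal calls were 492 and 354. Ivl, Lypd3, Ly6d and Sfn kept their direction under both scalings.

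Luminal cells were lower than basal cells for 5 of the 8 genes in intact mice (Ivl, Sfn, Ly6d, Lypd3 and Dsc3) and higher for none, against 8.45% and 11% of all genes. In castrated mice they were lower for 4 (Ivl, Sfn, Sprr1a and Dsc3) and higher for none, against 7.22% and 11.2%. Dsc3 passed the filter only through basal arrays, so its place in these counts is not separate from the filter. All 8 differences were below 0 in both conditions, with medians of -1.94 and -1.35, where the medians of all genes were 0.07 and 0.08. Each of these comparisons shares its arrays with the castration comparisons, so a low intact luminal array moves both.

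The interaction of cell type and castration was called for none of the 8 genes by limma, against 0.676% of all genes with a larger and 0.471% with a smaller castration difference in luminal cells. At an unadjusted p of 0.05 it picked 1 of 8, Sprr1a, at -0.56 ± 0.21 (adjusted p = 0.250), against 12.7% of all genes. The calls for Ly6d and Sfn in luminal cells alone therefore do not show that their response differed between the cell types.

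**Figure D3:**
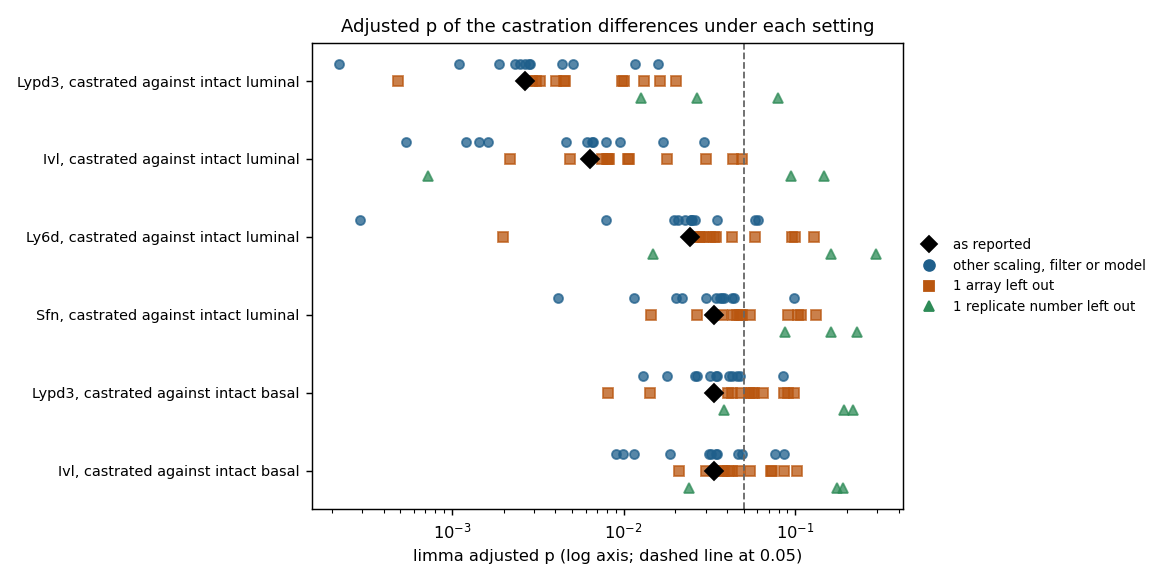
Limma adjusted p (log axis) of the 6 castration calls as reported and under each other setting, including the removal of 1 array or of the 4 arrays of a replicate number. The luminal calls for Lypd3 and Ivl stay left of the dashed line at 0.05 whichever single array is removed, while points of the other 4 calls cross it.

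The calls differed in how far they rested on single arrays. The luminal castration calls for Ivl and Lypd3 were kept under each of the 12 removals of 1 array. Without all 4 arrays of replicate number 1 the adjusted p was 0.146 for Ivl and 0.0791 for Lypd3, and without those of number 2 it was 0.0945 for Ivl. The Ly6d call was lost without castrated luminal replicate 2 (adjusted p = 0.0993) or 3 (0.128) and without intact luminal replicate 1 (0.0581) or 2 (0.0957). The Ly6d difference was 1.74 without intact luminal replicate 2, the array at 13.3, and 3.33 without intact luminal replicate 3, the array at 248.0. The luminal Lypd3 difference was 3.39 without intact luminal replicate 2. The Sfn call was lost without castrated luminal replicate 1, 2 or 3 (0.0903, 0.108 and 0.132) and without intact luminal replicate 1 (0.0544) or 3 (0.104). In basal cells the Ivl call was lost without castrated basal replicate 1, 2 or 3 (0.0724, 0.0864 and 0.0733), castrated luminal replicate 1 (0.0544) or intact basal replicate 3, which took the difference to 1.73 (0.103). The basal Lypd3 call was lost without castrated basal replicate 2 or 3 (0.0858 and 0.0980), any of the castrated luminal replicates (0.0576, 0.0559 and 0.0536) or intact basal replicate 1 or 2 (0.0652 and 0.0908). Luminal arrays matter there because all 4 groups share an estimate of the spread.

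Between cell types, the calls for Ivl and Sfn were kept without any 1 array in both conditions. In intact mice Ly6d was kept as well, at -2.17 without intact luminal replicate 2 and -3.76 without intact luminal replicate 3. Ivl went to -4.06 without intact basal replicate 3. Lypd3 was at -2.13 without intact luminal replicate 2. It went to -0.92 without intact luminal replicate 3 (adjusted p = 0.171) and was also lost without intact luminal replicate 1, intact basal replicate 1 or 3, castrated basal replicate 2, or any castrated luminal replicate. Dsc3 was larger in size without intact basal replicate 1, at -3.002, and went to -1.39 without intact basal replicate 3 (adjusted p = 0.175) and was also lost without intact luminal replicate 1 or 3 or castrated luminal replicate 1 or 2. In castrated mice Dsc3 was lost without castrated basal replicate 1 or 2 or any castrated luminal replicate (adjusted p of 0.0509 to 0.0690), and the Sprr1a call was kept. With the replicate number as a block, the Lypd3 difference in intact mice had an adjusted p of 0.0554, which left 4 calls in place of 5.

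Genes that work with the members were examined from lists chosen with earlier results known. Of 19 tested genes among 44 other cornified envelope and late keratinocyte genes, none was called in luminal cells after castration, where 2.9% of all genes rose and 2.96% fell, and 1 rose in basal cells, against 1.12%. This was Lor, which encodes loricrin, the main protein of the mature envelope in epidermis, at 131, 475 and 204 in intact and 1433, 1014 and 1895 in castrated basal cells. Its difference was 2.49 ± 0.63 (adjusted p = 0.0428), and the call was lost in 9 of the 12 removals of 1 array, in all 3 removals of a replicate number and under 7 of 12 other settings. The replicate block gave an adjusted p of 0.0530, and the mean of all probe sets of Lor gave 1.02 (adjusted p = 0.313). The single arrays whose removal lost the call were the 3 castrated basal and 3 castrated luminal replicates, intact basal replicates 1 and 3 and intact luminal replicate 1. Lor was also lower in luminal than in basal cells of intact mice, with a difference of -3.14 ± 0.63 (adjusted p = 0.00181), as were S100a10 and Sprr2h, while Sprr2f was higher by 2.79 ± 0.67 (adjusted p = 0.00712).

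Of 10 other desmosome genes tested, 4 rose in luminal cells after castration and none fell, where 2.9% and 2.96% of all genes did. Dsc1, a desmosomal cadherin of the upper epidermal layers, rose by 3.48 ± 0.70 (adjusted p = 0.00568), from 15.3, 62.1 and 29.6 to 692.7, 728.5 and 275.9. Dsp (desmoplakin, which ties desmosomes to keratin filaments) rose by 0.93 ± 0.19, Pkp4 by 0.80 ± 0.19 and Dsc2 by 1.52 ± 0.44, with adjusted p values of 0.00599, 0.0179 and 0.0495. The luminal call was kept in 3 of 12 removals of 1 array for Dsc2 and in 9 for Pkp4. All 3 removals of a replicate number lost both. Without the intensity trend, limma adjusted p was 0.137 for Dsp, 0.137 for Pkp4 and 0.0633 for Dsc2. In basal cells, where 1.12% of all genes rose, Pkp4 alone was called, at 0.82 ± 0.19 (adjusted p = 0.0323). Between the cell types of intact mice 5 of the 10 were lower in luminal cells, led by Pkp1 at -4.06 ± 0.40 (adjusted p = 1.96e-06), and 2 were higher, Pkp2 and Dsc2, against 8.45% and 11% of all genes.

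Of 9 tested keratins of squamous or stratified epithelia, 3 rose in luminal cells, against 2.9% of all genes: Krt6a by 5.24 ± 0.88 (adjusted p = 0.00162), Krt17 by 1.89 ± 0.42 (adjusted p = 0.0110) and Krt16 by 2.34 ± 0.60 (adjusted p = 0.0289). Krt17 was at 0.71 when all its probe sets were averaged (adjusted p = 0.381). In basal cells, against 1.12% of all genes, Krt4, a keratin of internal stratified epithelia, rose by 2.91 ± 0.66 (adjusted p = 0.0306). Of 17 tested transcription factors of squamous epithelia, Klf5, Ovol1 and Tfap2c rose in luminal cells by 1.11 to 1.61 (Klf5 at -0.56 when all its probe sets were averaged), and Trp63, the p63 gene that maintains basal cells, fell by 1.92 ± 0.43 (adjusted p = 0.0121), against 2.9% of all genes that rose and 2.96% that fell. Trp63 was at -0.73 when all its probe sets were averaged (adjusted p = 0.313). Ovol1 moved the other way in basal cells, at -1.79 ± 0.40 (adjusted p = 0.0274), and its interaction was 3.40 ± 0.56 (adjusted p = 0.00634). With all its probe sets averaged, Ovol1 was at 1.14 in luminal (adjusted p = 0.0779) and -1.12 in basal cells (adjusted p = 0.113). Its interaction call was kept in all 12 removals of 1 array, and its basal call was lost in 5. Each of the 3 removals of a replicate number lost its luminal, basal and interaction calls.

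Relatives of single members were counted in the same way. None of the 16 other Ly6/uPAR domain genes tested was called after castration in either cell type, where 2.9% of all genes rose and 2.96% fell in luminal cells and 1.12% and 1.5% in basal cells. A difference that was not called is not shown to be absent. In intact mice 2 of these 16 were higher in luminal than in basal cells (Psca and Cd59a) and 1 was lower (Plaur). Of all genes 11% were higher and 8.45% lower. Among the other 14-3-3 genes, Ywhae differed by -0.56 ± 0.14 in luminal cells (adjusted p = 0.0265; 0.11 under quantile normalization, -0.18 under median centring and -0.13 as the mean of its probe sets), and no other castration difference was called. Tgm4, the secreted prostate transglutaminase, fell by 7.21 ± 0.43 in luminal cells (adjusted p = 3.24e-08) and by 4.65 ± 0.43 in basal cells (adjusted p = 9.42e-06). No other castration difference of the 5 other transglutaminases tested was called. Among the castration calls for genes outside the set, those for Dsc1, Dsp, Krt6a and Tgm4 were kept without any 1 array. The Krt17 call was lost without castrated luminal replicate 2 (adjusted p = 0.0565), Klf5 went to 0.66 without intact luminal replicate 3 (adjusted p = 0.0765), and each of the other castration calls of these lists was lost without at least 1 array.

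**Figure D4:**
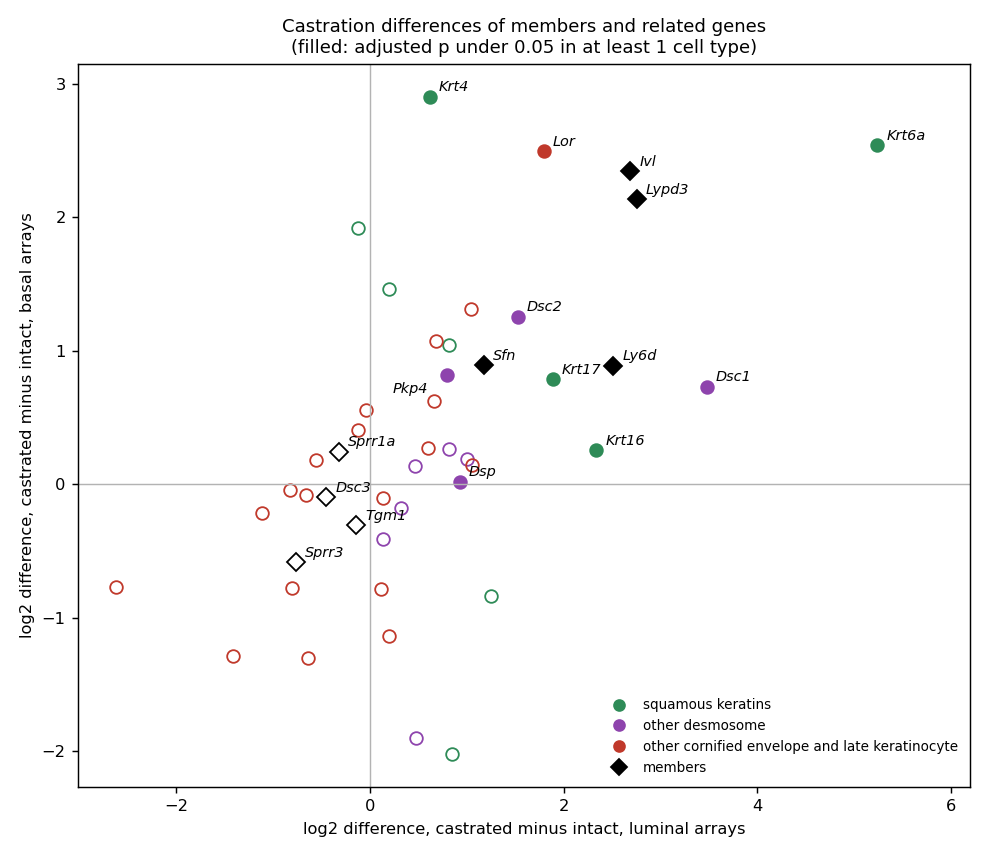
Castration difference (log2) in basal arrays against that in luminal arrays for the 8 tested members (diamonds) and 3 lists of related genes (circles), each from 3 arrays a group. Ivl and Lypd3 lie above 2 on both axes, and Krt6a and Dsc1 lie farther right than any member.

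Signals of other cell types moved with some of these results. Beside the castration calls counted here, 2.9% of all genes tested rose and 2.96% fell in luminal cells. In basal cells 1.12% rose and 1.5% fell. The 7 luminal markers summed to 192412 to 216952 on intact and 115911 to 148042 on castrated luminal arrays, where 2 fell. On basal arrays they summed to 68612 to 76974 and 80321 to 100427, where 1 rose and 2 fell. The 8 basal markers summed to 94795 to 115476 on intact and 124118 to 165509 on castrated basal arrays, with no castration call there. Their sums were 8827 to 12184 on intact luminal and 10422 to 12387 on castrated luminal arrays. None of the 8 rose in luminal cells after castration, and 1 fell. Krt5, 1 of these 8, read 39.3, 5.92 and 62.7 on the castrated luminal arrays. The sums there came mostly from other basal markers, so Krt5 does not stand for the list. The 8 epidermis markers summed to 380 to 540 on intact and 1022 to 1363 on castrated luminal arrays. Krt2, Flg, Dsg1a and Casp14 were below the 40th percentile on all 3 castrated luminal arrays. Only 4 of the 8 were tested, and Dsc1 was the only one of these called in luminal cells. In basal cells the same sums were 921 to 1724 and 1337 to 2657, and 1 of the 4 tested, Lor, rose. The 6 urothelium markers summed to 2298 to 13466 on intact and 11211 to 13491 on castrated luminal arrays, where Upk3b and Krt20 were below the 40th percentile throughout. Upk3a rose in luminal cells by 3.25 ± 0.87 (adjusted p = 0.0344), and none of the other 4 tested was called. The 9 leukocyte markers summed to 882 to 1420 and 1613 to 4444 in luminal cells, and to 1520 to 2325 and 2732 to 4568 in basal cells. None of the 9 was called in luminal cells, and 1 rose in basal cells. The 8 fibroblast markers summed to 6596 to 11248 on intact and 515 to 802 on castrated luminal arrays, and to 36689 to 44999 and 21789 to 27724 on basal arrays, with 5 lower calls in luminal and 4 in basal cells. The 5 seminal vesicle markers went from 181036 to 300338 in intact down to 4170 to 10588 in castrated luminal cells, where all 5 fell, and from 22506 to 34560 down to 67.7 to 597 in basal cells, where 4 fell. The 6 endothelial markers summed to 272 to 1121 and 84.6 to 119 in luminal cells, and to 526 to 997 and 240 to 308 in basal cells, with no call among the 5 tested. The 7 smooth muscle markers summed to 485 to 2205 and 204 to 404 in luminal cells, and to 3327 to 5081 and 3295 to 5172 in basal cells, again with no call among the 5 tested. The part of these cell types in the results was not tested.

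Over all 12 arrays Pearson's r was above 0 for 26 of the 28 pairs of tested members, with a median of 0.50, and these arrays share the group differences. After the group means were removed, 11 pairs were above 0 and 17 below, with a median of -0.10. The genes whose pattern over the 12 arrays was most like that of Ly6d were Prnp, Rrp8, Smoc2, Il6ra and Nrm, with r from 0.935 to 0.950. Those most like the mean of the 8 tested genes were Frmd6, Palld, Nfe2l2, Aqp3 and Iffo2, with r from 0.973 to 0.977. These are descriptions over arrays that share their groups.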

How the data were processed

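Signals were used as deposited: linear intensity values that the authors made with MAS5, per the submitters' processing notes, with a 2% trimmed mean near 500 on each of the 12 arrays. Software versions, image processing and present calls are not given in the sources used here. Of 45101 probe sets, 34945 had a single gene symbol in the platform annotation, 932 had several, 9160 had none and 64 were controls. Signals were put on a log2(signal + 16) scale, and the probe set of highest mean represented each gene.

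The 4 group means were fitted with limma 3.58.1 in R 4.3.3 (8 residual degrees of freedom, intensity trend), and p-values were adjusted by Benjamini and Hochberg over 14645 genes with a threshold of 0.05. Depth has no meaning for arrays, and 3 arrays a group limit the precision. The labels speak of sets with paired intact mice and do not say that replicate numbers mark them. Residuals of arrays of the same number correlated at -0.00723 to 0.0258. Other scalings, constants, filters, probe set rules and models, a replicate block and the removal of arrays were tried as alternatives. The members and all lists were chosen with earlier results of these data known. All members are named, and of each other list up to 4 called genes by lowest adjusted p in a comparison. Promoter windows came from RefSeq (GRCm38.p6).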

Additional observations from a re-analysis of the deposited data

How the results depend on the processing

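Over 34 member differences (all 8 genes in 4 comparisons, and of the interaction Ly6d and Sprr1a only), 810 of 912 values under the other settings kept their direction and their side of the threshold, 73 lost a call, 6 gained one and 23 changed direction. The cause was not tested. Without the intensity trend, the number of members called went from 4 to 2 for luminal castration and from 2 to 0 for basal castration. Array weights gave 1 for basal castration and 3 for luminal against basal cells of intact mice, and the 2-group fit also gave 3 there, in place of 5. Without 1 array or 1 replicate number the counts ran from 0 to 4 for luminal castration, 0 to 2 for basal castration and 2 to 5 for luminal against basal cells of intact mice. The replicate block gave 4, 2, 4, 4 and 0 calls in the 5 comparisons, and besides Lypd3 in intact mice it changed no member's call.

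Quantile normalization gave 0.73 for Sprr1a and 0.23 for Tgm1 in luminal castration, 0.23 for Dsc3 in basal castration, and for Sprr1a 0.034 in luminal against basal cells of castrated mice and 0.30 in the interaction. Median centring gave 0.060 for Sprr1a and 0.24 for Tgm1 in luminal castration, and 0.037 for Tgm1 and 0.24 for Dsc3 in basal castration. Array weights gave 0.061 for Tgm1 in luminal and 0.39 for Dsc3 in basal castration. Leaving out arrays moved luminal Tgm1 from -0.56 to 0.081, and in basal castration Sprr3 from -1.22 to 0.11, Tgm1 from -1.13 to 0.20 and Dsc3 from -1.07 to 1.27. Outside the set, luminal castration gave 0.11 for Ywhae under quantile normalization and -0.56 for Klf5 as the mean of its probe sets. With 3 arrays a group and several members near the dim end of the array, a difference that did not pass the test is not shown to be absent.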
